A study of Mus musculus with 20 samples.

Results

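The 8 genes described here encode GABA receptor subunits and were measured in mouse striatum: Gabra2, Gabra4, Gabra5, Gabrb1, Gabrg1, Gabrd, Gabbr1 and Gabbr2. They were chosen by symbol, as the row of the deposited count table that carried each symbol, and for Gabrb1, which 2 rows named, as the row with the higher mean count. The members are 8 of the 26475 loci with a gene symbol, and all 8 were among the 17206 genes with enough reads to be tested. The 20 mice were males of about 6 months, labelled Collaborative Cross, a population bred from several inbred founder strains. A line selected for activity in the home cage (called overactive here) was set against a control line, and each was given saline or d-amphetamine at 25 mg/kg, 2 hours before the whole striatum was taken, with 5 mice in each of the 4 groups and 1 RNA-seq library per mouse. Amphetamine makes dopamine terminals, which are dense in this region, release their transmitter. The labels give both lines the same population name, and do not say which stretches of the genome differ between them.

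GABA is the main inhibitory transmitter of the brain, and most neurons of the striatum, the projection neurons included, use it as their own transmitter. It acts on GABA-A receptors, chloride channels that usually combine alpha and beta subunits with a gamma or a delta subunit, and on GABA-B receptors, which are pairs of the proteins made from Gabbr1 and Gabbr2 and act through G proteins. Receptors with a gamma subunit sit largely at synapses, while those with delta, often together with alpha4, lie outside synapses and carry the slow, steady inhibition called tonic. The study's design asks how the striatal transcriptome responds to amphetamine, how it differs between the lines, and whether the response differs between them.

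Libraries held 31393788 to 53773028 counts. Levels are given as CPM, the usual unit of library-scaled counts, here with TMM factors, and differences as log2 fold changes with their standard error (SE) from 1 edgeR quasi-likelihood model of all 20 libraries. Values of p were adjusted over the 17206 genes by the Benjamini-Hochberg method, and a gene passed a comparison when the result was below 0.05. No gene passed for amphetamine against saline in the control line, in the overactive line or over both lines, nor for the difference between lines in that response, so the background of called genes was 0% in each of these 4 comparisons (957, 1382, 1895 and 510 genes were under 0.05 before adjustment). With DESeq2 the calls were 0, 40, 181 and 0 genes, and with limma-voom 0 in each. Between the lines, 1.11% of genes passed after saline, 0.453% after amphetamine and 7.02% over both treatments. Markers of the tissue were present throughout: the 13 detected markers of striatal projection neurons summed to 5040 to 8310 CPM. Libraries also carried markers of neighbouring regions in unequal amounts. The 15 markers of cortical and hippocampal excitatory neurons summed to 355 to 1590 CPM. The 18 markers of thalamic, septal and hypothalamic neurons, 17 of them tested, summed to 174 to 609 CPM. Overactive saline replicates 1 and 4 and overactive amphetamine replicates 2 and 3 had the highest scores of the thalamic list. In whole tissue, fewer cells of a type and less RNA per cell cannot be told apart.

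None of the 8 members passed the edgeR test in any of the 7 comparisons, and the numbers with an unadjusted p under 0.05 were 2 for amphetamine over both lines, where 11% of all genes tested were under it, and 3 for line over both treatments, where 25.6% were. For amphetamine they were 2 in the control line (5.56% of all genes) and 2 in the overactive line (8.03%). The response difference had 1 (2.96%), line after saline 2 (17.3%) and line after amphetamine 0 (12.9%). Gabra5 came closest for amphetamine: its 10 amphetamine libraries all lay above its 10 saline libraries, the only gene of the 17206 for which this held. Gabbr2 was the other member whose amphetamine libraries all lay above its saline libraries in the overactive line, which held for 84 genes, or 0.488% of those tested. Gabrg1 had the largest log2 difference between the lines over both treatments. Gabra2 varied most between mice of the same group.

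**Figure D1:**
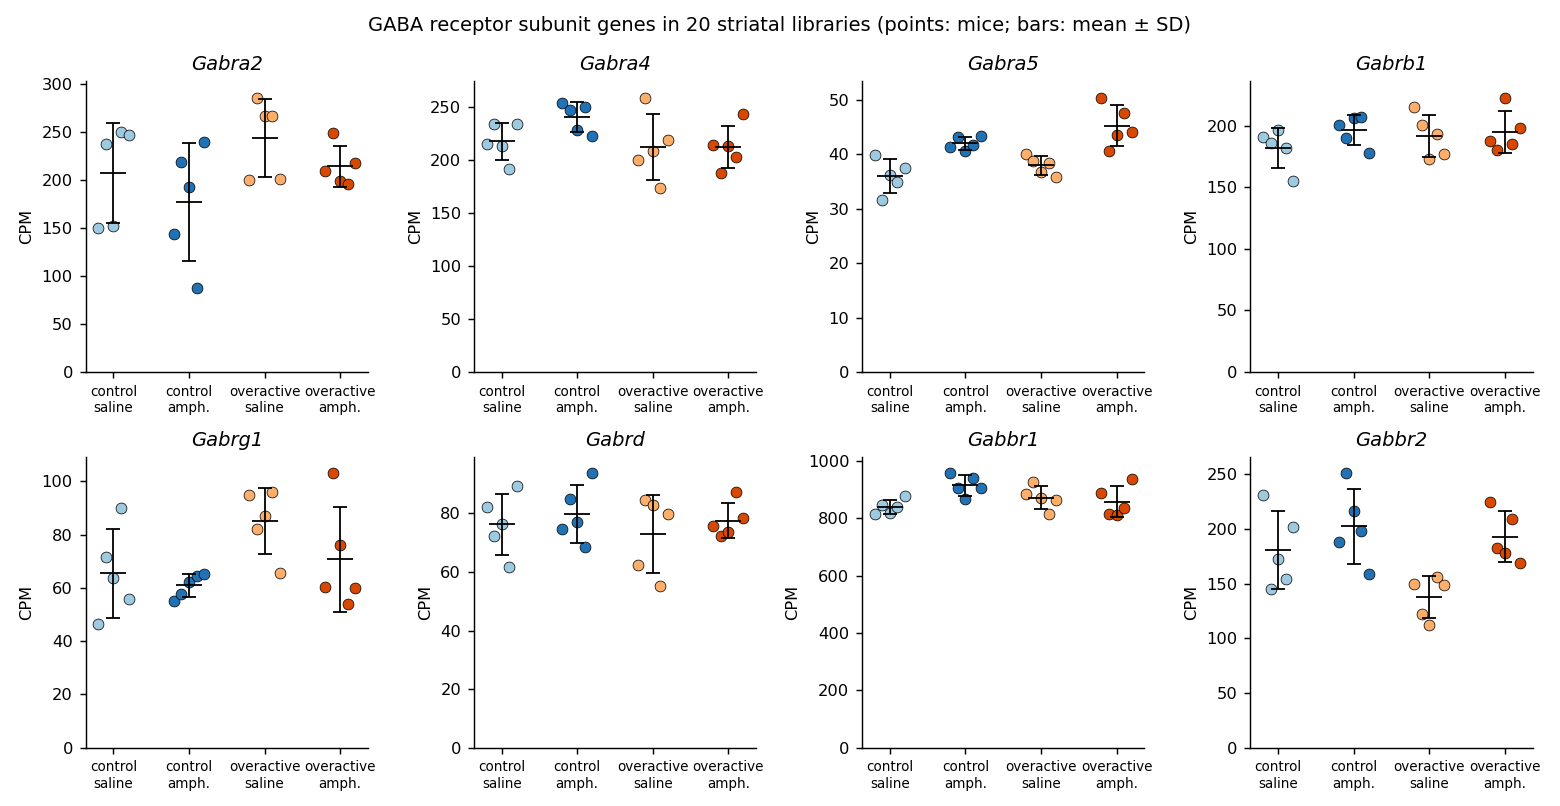
Level (CPM) of each of the 8 genes in every library, by group, with points for mice and bars for the mean ± SD of 5 mice. In the Gabra5 panel both amphetamine groups (40.5 to 50.4 CPM) lie above both saline groups (31.5 to 40.0 CPM), and in the Gabra2 panel the control line runs from 87.7 to 250 CPM.

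Levels of different genes were compared per kb of exon, from GENCODE M21 exon lengths. Gabbr1, the GABA-B subunit that binds GABA, was the most abundant of the 8, at 112 ± 6.01 CPM per kb (mean ± SD of 20 libraries). Its lowest library, at 105 CPM per kb, exceeded the highest library of each of the other 7. Gabra4 stood at 36.3 ± 3.81 CPM per kb, the highest of the GABA-A subunits among them, and its range over libraries overlapped those of the next 3. Gabra2, Gabbr2 and Gabrd followed at 27.6 ± 6.42, 26.7 ± 5.47 and 26.6 ± 3.37 CPM per kb, and their ranges over libraries overlapped. Gabrb1 (13.8 ± 1.13) and Gabra5 (13.5 ± 1.49) followed, with ranges that overlapped each other. Their libraries, up to 16.2 and 16.9, lay below the lowest of Gabrd, at 19.2 CPM per kb, but overlapped the lowest of Gabra2, at 11.5. The highest of Gabra5 also passed the lowest of Gabbr2, at 16.7. Gabrg1 had the lowest mean, at 8.96 ± 2.06 CPM per kb, and its highest library, at 13.1, overlapped those of Gabra5, Gabrb1 and Gabra2. Isoform lengths were not known, so the scale per kb rests on the union of annotated exons.

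**Figure D2:**
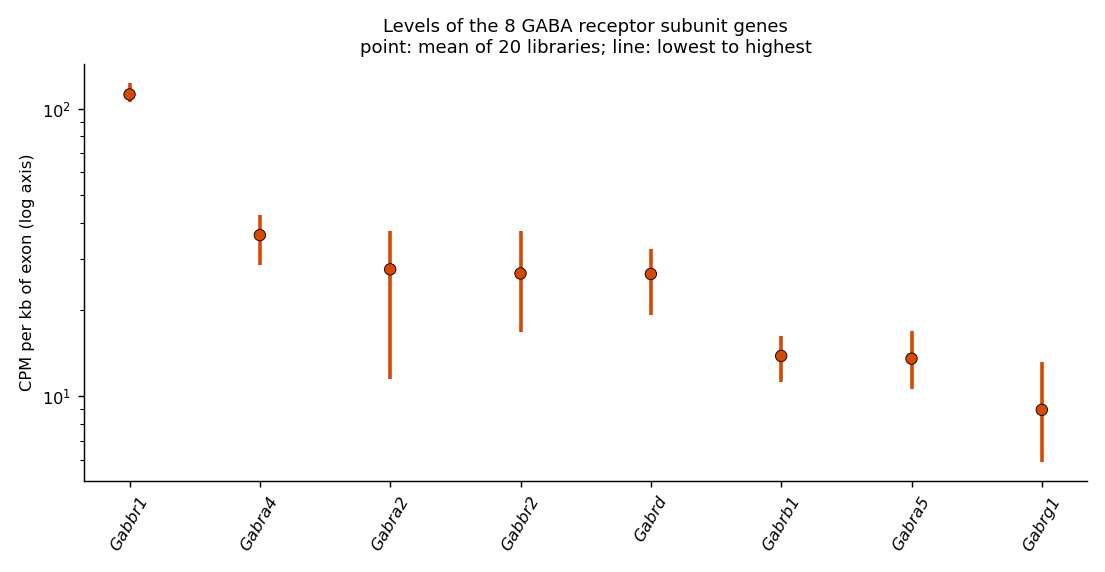
Level per kb of exon (CPM per kb, log axis) of the 8 genes, in falling order, with the mean of 20 libraries as a point and the lowest to highest library as a line. Gabbr1, at 112 CPM per kb, stands clear of the rest, and Gabrg1, at 8.96, has the lowest mean.

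Gabra5 encodes alpha5, a GABA-A subunit best known from the hippocampus, where it is found largely outside synapses. The gene lies on the minus strand of chromosome 7 (GRCm38, 57407672 to 57510059). In control line saline libraries 1 to 5 its level was 39.8, 31.5, 36.2, 34.8 and 37.5 CPM. In the control line amphetamine libraries it was 41.4, 43.2, 40.6, 41.6 and 43.3 CPM. These groups did not overlap, a pattern shown by 77 genes, or 0.448% of those tested. Overactive saline libraries held 40.0, 38.8, 36.7, 38.4 and 35.8 CPM. Overactive amphetamine libraries held 50.4, 40.5, 43.6, 47.6 and 44.1 CPM. These groups did not overlap either, which held for 84 genes, or 0.488%. Pooled over lines, the mean was 43.6 ± 3.16 CPM after amphetamine and 37.0 ± 2.58 CPM after saline (SD, n = 10), and the share of genes separated in this direction was 0.00581%, which is Gabra5 alone.

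The log2 difference of Gabra5 between amphetamine and saline was 0.24 (SE 0.04) over both lines, a 1.18-fold level. It was 0.22 (SE 0.06) in the control line and 0.25 (SE 0.06) in the overactive line, with a difference between lines of 0.03 (SE 0.09). Over both lines Gabra5 had the smallest p of all genes (unadjusted p = 2.58e-05), and with edgeR the adjusted p = 0.202. With DESeq2 it passed over both lines (adjusted p = 0.000691), as the only member, where 1.05% of genes passed. It also passed there in the overactive line (adjusted p = 0.0438), where 0.232% of genes passed. It passed in edgeR when the 4 libraries with the most thalamic marker RNA were left out, where the log2 difference was 0.29 (adjusted p = 0.031), without control saline replicate 1 (adjusted p = 0.0445) and without overactive amphetamine replicate 2 (adjusted p = 0.0447). The last of these libraries is also among the 4. Of 31 alternative fits over both lines, 27 left Gabra5 uncalled, with an edgeR adjusted p up to 0.417 when single libraries were left out. The 15 cortical markers moved in the same direction: 13 were higher after amphetamine over both lines, with a median log2 difference of 0.81, and none passed. With their score as a covariate the Gabra5 difference was 0.13 (adjusted p = 1), and the part of these cells in the result was not tested. Between the lines Gabra5 differed by 0.09 over both treatments (SE 0.04, edgeR adjusted p = 0.187), and by 0.18 with that covariate (adjusted p = 0.0421). Gabra5 correlated with the cortical score over the 20 libraries at r = 0.56 (rho = 0.60, permutation p = 0.0105 and 0.00554, adjusted 0.0686 and 0.0492 over 80 member and score pairs), at 0.57 without the 2 libraries farthest from the median score, and at 0.73 on values centred by group.

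Gabrg3, which encodes the gamma3 subunit, lies beside Gabra5 on chromosome 7. It differed between amphetamine and saline by -0.08 over both lines (SE 0.06, edgeR adjusted p = 0.683), and was named for its position after values were seen. An antisense gene, Gm9962, covers 148 of the 2974 exon bases of Gabra5. Whether reads were counted by strand is not given in the sources used here, so reads from those bases cannot be told apart.

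The genes most like Gabra5 over the 20 libraries, by Pearson's r of log2 CPM among genes with a mean of at least 1 CPM, were Ccng1 (0.84), Fmn1 (0.83) and Bcl2l11 (0.81). Numa1 was the most opposed, at -0.88. On values centred by group r was 0.78 for Ccng1, 0.58 for Fmn1, 0.53 for Bcl2l11 and -0.71 for Numa1.

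**Figure D3:**
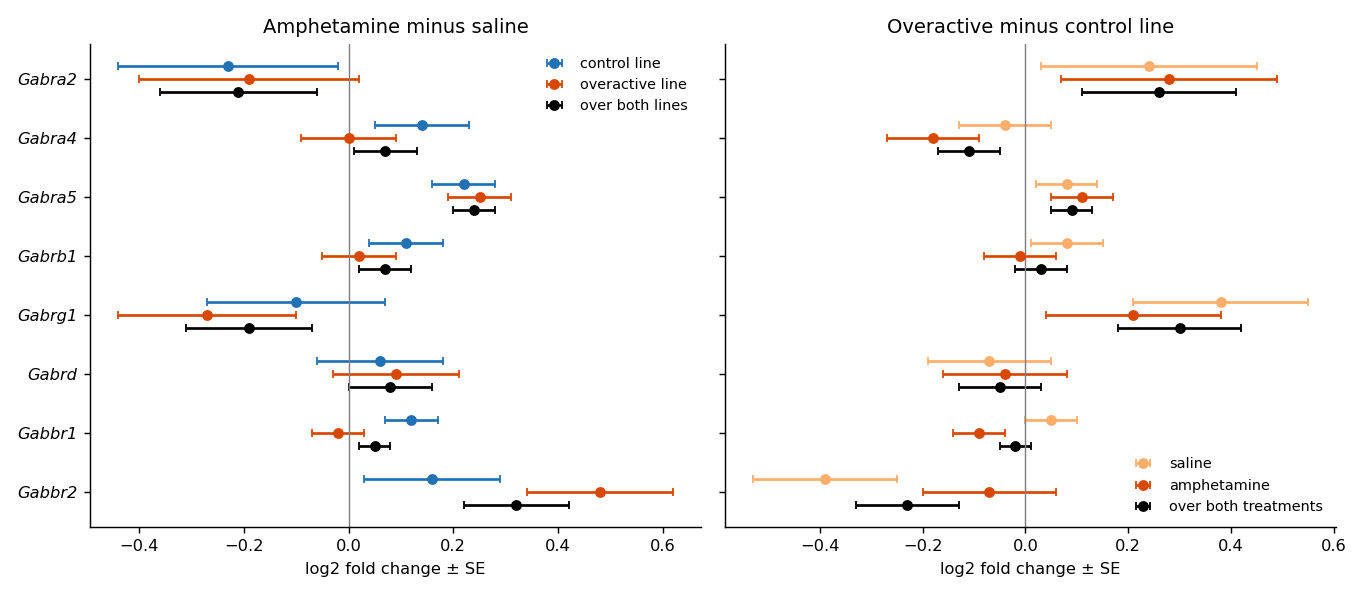
Log2 fold change ± SE of each of the 8 genes, at left for amphetamine against saline and at right for the overactive against the control line. For amphetamine, Gabra5 is at 0.22 in the control and 0.25 in the overactive line, and Gabbr2 at 0.16 and 0.48; no difference between lines in the response passed the test.

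Upstream sequences are shown for 3 members: Gabra5, for its separation by treatment, Gabra2, for its spread between mice, and Gabrg1, for its difference between lines. They are the 250 bases before the RefSeq start site on GRCm38.p6, 5′ to 3′ on the gene's strand (minus in each case), at chr7:57510060-57510309, chr5:71095850-71096099 and chr5:70842618-70842867. They come from the reference genome, and the sequence of these mice may differ.
Gabra5: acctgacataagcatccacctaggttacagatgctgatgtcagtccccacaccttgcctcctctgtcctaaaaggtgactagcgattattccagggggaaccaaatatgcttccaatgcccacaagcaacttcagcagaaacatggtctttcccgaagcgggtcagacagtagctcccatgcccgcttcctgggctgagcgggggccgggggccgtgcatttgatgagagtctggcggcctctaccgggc
Gabra2: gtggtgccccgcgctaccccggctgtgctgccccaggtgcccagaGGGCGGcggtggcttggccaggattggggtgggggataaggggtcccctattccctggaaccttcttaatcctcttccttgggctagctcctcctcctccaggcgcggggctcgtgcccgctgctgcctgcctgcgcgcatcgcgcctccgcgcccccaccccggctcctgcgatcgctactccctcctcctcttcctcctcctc
Gabrg1: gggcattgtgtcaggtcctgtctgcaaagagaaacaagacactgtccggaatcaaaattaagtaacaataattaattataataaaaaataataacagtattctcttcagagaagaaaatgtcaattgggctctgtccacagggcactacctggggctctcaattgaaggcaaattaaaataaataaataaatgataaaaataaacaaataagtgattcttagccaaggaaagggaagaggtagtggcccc
Capitals mark a GC box (GGGCGG on either strand), which 32.7% of 32851 promoters of this length hold. The Gabra2 stretch holds 1, and those of Gabra5 and Gabrg1 hold none. GC content was 56.4% for Gabra5, 70.0% for Gabra2 and 35.6% for Gabrg1, where the median promoter has 52.4%. The Gabrg1 stretch holds 1 CpG, against 9 for Gabra5, 18 for Gabra2 and a median of 6. Of the motifs of activity-regulated factors searched on both strands, the cAMP response element TGACGTCA (in 1.55% of promoters), its core TGACG (17.8%, which every full element also holds), the AP-1 site TGANTCA (6.75%) and the EGR site GCGGGGGCG (2.57%) were in none of the 7 members that had a sequence. The TATA box TATAAA (12.4%) and the E-box CACGTG (6.02%) were in none either. Of the 8 members 7 matched the table, and Gabrd did not. The highest GC content among members was that of Gabbr2, at 80.8% with 37 CpG.

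Gabbr2 encodes the subunit that couples to the G protein, on the minus strand of chromosome 4 (46662305 to 46991873). Control saline libraries 1 to 5 held 231, 145, 173, 154 and 202 CPM, and control amphetamine libraries 188, 251, 216, 198 and 159 CPM. The control groups overlapped over most of their range. Overactive saline libraries held 150, 122, 112, 156 and 149 CPM, and overactive amphetamine libraries 225, 183, 178, 209 and 169 CPM. In the overactive line the groups did not overlap, as for the 0.488% of genes noted above. The log2 difference after amphetamine was 0.48 in the overactive line (SE 0.14, edgeR adjusted p = 0.371), 0.16 in the control line (SE 0.13, edgeR adjusted p = 0.899) and 0.32 over both (SE 0.10, unadjusted p = 0.00325, edgeR adjusted p = 0.224). The difference between the lines in this response was 0.32 (SE 0.19, edgeR adjusted p = 1).

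After saline, Gabbr2 was at 138 ± 19.6 CPM in the overactive line and 181 ± 35.5 CPM in the control line (SD, n = 5), a log2 difference of -0.39 (SE 0.14, edgeR adjusted p = 0.149). After amphetamine the lines held 193 ± 23.3 and 202 ± 34.0 CPM, a difference of -0.07 (SE 0.13, edgeR adjusted p = 0.857). Over both treatments the difference was -0.23 (SE 0.10, edgeR adjusted p = 0.137). Of the 15 cortical markers 14 were also lower in the overactive line after saline, with a median log2 difference of -1.17, and 1 passed. Gabbr2 followed the cortical score over the 20 libraries, with r = 0.87 and rho = 0.87 (permutation p = 1e-05 for each, the smallest that 100000 permutations can give, adjusted 0.0004 and 0.0008 over 80 pairs). Without the 2 libraries farthest from the median score r was 0.78, and on values centred by group it was 0.71. The score itself was -0.82 ± 0.44 in overactive saline, 0.21 ± 0.65 in overactive amphetamine, 0.11 ± 0.52 in control saline and 0.50 ± 0.20 in control amphetamine libraries. With the score as a covariate the amphetamine difference of Gabbr2 was 0.09 over both lines, in place of 0.32, and 0.14 in the overactive line, in place of 0.48. The line difference was then -0.07 after saline, in place of -0.39, and -0.02 over both treatments, in place of -0.23. The alternatives other than leaving out single libraries gave an amphetamine difference of 0.09 to 0.41 over both lines. In the overactive line they gave 0.14 to 0.66, and Gabbr2 passed in no alternative of either comparison. The part of cortical cells in these values was not tested. The genes most like Gabbr2 were Kcnj6 (r = 0.93), which encodes a potassium channel subunit opened by GABA-B receptors, Nrn1 (0.92), which is itself on the cortical list, and Olfm1 (0.91).

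**Figure D4:**
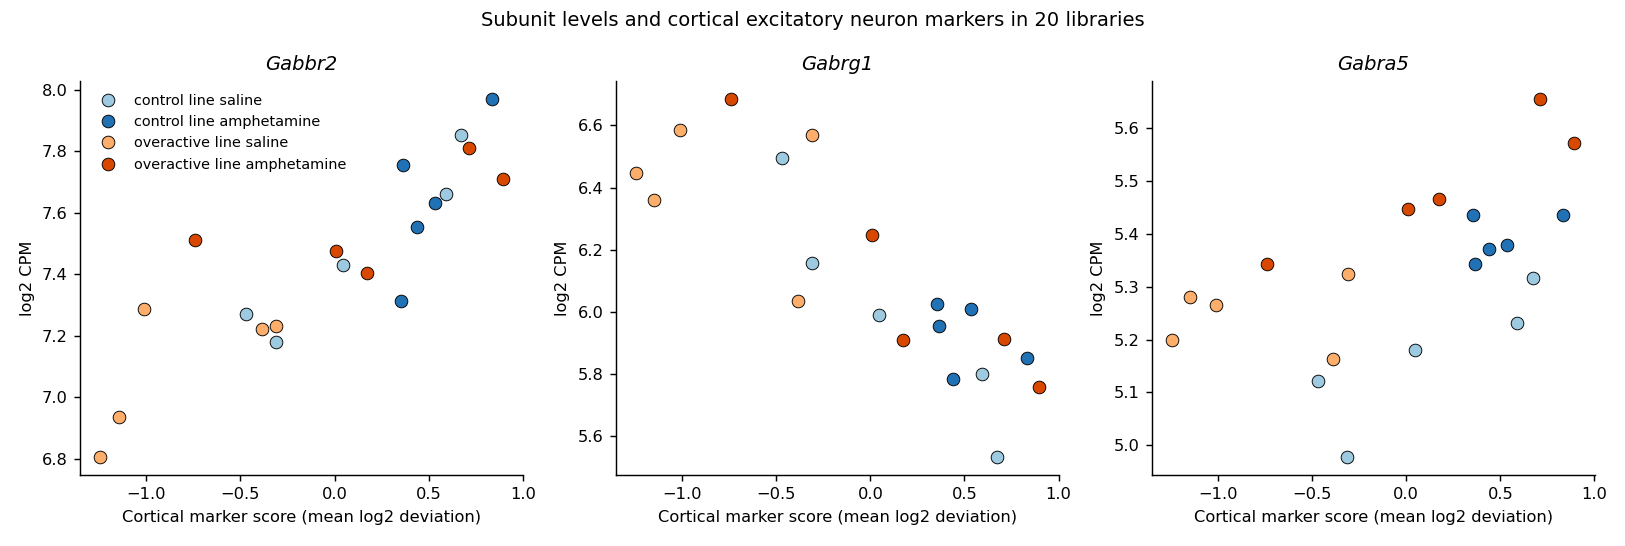
Level (log2 CPM) of Gabbr2, Gabrg1 and Gabra5 against the cortical marker score (mean log2 deviation of 15 markers from their mean over libraries), 1 point per library, coloured by group. Gabbr2 is higher where the score is higher (r = 0.87), Gabrg1 is lower there (r = -0.85), and Gabra5 has r = 0.56.

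Gabbr1 was the steadiest of the 8 members, with a spread within groups of 0.07 on the log2 scale. The gene lies on the plus strand of chromosome 17 (37045966 to 37075067). Control saline libraries 1 to 5 held 815, 845, 820, 839 and 879 CPM, and control amphetamine libraries 957, 904, 866, 940 and 904 CPM. Only the highest saline library, replicate 5, reached above the lowest amphetamine library, replicate 3. The log2 difference was 0.12 (SE 0.05, unadjusted p = 0.0163, edgeR adjusted p = 0.880). Overactive saline libraries held 885, 927, 872, 814 and 863 CPM and overactive amphetamine libraries 889, 814, 812, 837 and 938 CPM, which overlapped throughout. There the log2 difference was -0.02 (SE 0.05), and the difference between lines in the response was -0.15 (SE 0.07, unadjusted p = 0.0391, edgeR adjusted p = 1). Over both treatments the lines differed by -0.02 (SE 0.03, edgeR adjusted p = 0.770). The genes most like Gabbr1 were H2-T10 (0.84), Tmem167 (0.82) and Gpr158 (0.82). H2-T10 and the most opposed gene, Slc39a7 (-0.79), also lie on chromosome 17.

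Gabrg1 encodes gamma1, a gamma subunit with a narrow distribution in the brain. It is the first gene of a cluster on chromosome 5, at 70751047 to 70842617 on the minus strand, and its upstream sequence is the A- and T-rich one shown above. Control saline libraries 1 to 5 held 46.3, 71.4, 63.5, 90.1 and 55.8 CPM. Overactive saline libraries held 94.8, 82.1, 87.1, 95.9 and 65.6 CPM. The groups overlapped through control replicate 4 and overactive replicate 5. After amphetamine, control libraries held 55.1, 57.8, 62.0, 64.5 and 65.1 CPM and overactive libraries 60.3, 103, 76.0, 54.1 and 60 CPM. Here 2 overactive libraries, replicates 2 and 3, lay above all 5 control libraries and the other 3 lay within or below their range.

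Over both treatments Gabrg1 was 0.30 higher on the log2 scale in the overactive line (SE 0.12, unadjusted p = 0.0230, edgeR adjusted p = 0.129), where 7.02% of genes passed. Without control saline replicate 4 the difference was 0.37 and passed (edgeR adjusted p = 0.0489). After saline it was 0.38 (SE 0.17, edgeR adjusted p = 0.255) and after amphetamine 0.21 (SE 0.17, edgeR adjusted p = 0.620). The amphetamine difference over both lines was -0.19 (SE 0.12, edgeR adjusted p = 0.591). Gabrg1 ran opposite to the cortical score (r = -0.85, rho = -0.87, permutation p = 1e-05 and 2e-05, adjusted 0.0004 and 0.0008 over 80 pairs; r = -0.87 without the 2 farthest libraries) and along the thalamic score (r = 0.80, rho = 0.72, permutation p = 5e-05 and 0.00063, adjusted 0.00133 and 0.0168; r = 0.70 without the 2 farthest). Overactive amphetamine replicates 2 and 3, the high pair above, are among the 4 libraries highest in thalamic markers. With the cortical score as a covariate the line difference was 0.01 over both treatments (edgeR adjusted p = 0.989) and -0.03 after saline, and the amphetamine difference over both lines was 0.15. The score itself differed between the groups, and the part of cortical and thalamic cells in these values was not tested. For Gabrg1 and the oligodendrocyte precursor score, r was 0.66 (permutation p = 0.00176, adjusted 0.018) and rho 0.59 (permutation p = 0.0072, adjusted 0.0576). Grb10 (0.91), Zfp275 (0.90) and Mtss1 (0.90) were most like Gabrg1.

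Gabra2 encodes alpha2, a subunit of synaptic GABA-A receptors in the forebrain on which benzodiazepines act. It lies on the minus strand of chromosome 5 at 70957597 to 71095849, 115 kb from Gabrg1. Control saline libraries 1 to 5 held 150, 238, 152, 250 and 247 CPM. Control amphetamine libraries held 144, 219, 193, 87.7 and 240 CPM. Overactive saline libraries held 200, 286, 267, 267 and 201 CPM, and overactive amphetamine libraries 209, 249, 199, 196 and 218 CPM. All 4 libraries under 160 CPM were of the control line, 2 in each treatment.

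The spread of Gabra2 within groups was 0.38 on the log2 scale, above that of 99.0% of 2182 genes of like level, whose median was 0.10. It was 0.50 in the control line and 0.20 in the overactive line. Over both treatments the overactive line was 0.26 higher (SE 0.15, edgeR adjusted p = 0.291), and over both lines amphetamine differed from saline by -0.21 (SE 0.15, edgeR adjusted p = 0.635). Neither mean difference was large beside this spread. The next widest member was Gabrg1, at 0.29, and the spread of Gabra5, at 0.10, was above that of 33.2% of genes of like level. Alternatives other than leaving out single libraries gave a Gabra2 line difference of 0.09 to 0.31 and an amphetamine difference of -0.25 to -0.01. Gabra2 ran opposite to the cortical score by rho (-0.62, permutation p = 0.00403, adjusted 0.0403 over 80 pairs). By r it missed (-0.54, permutation p = 0.0117, adjusted 0.0686). Without the 2 farthest libraries r was -0.42, and on values centred by group -0.37. The part of cortical cells in the Gabra2 values was not tested.

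The table names a second locus Gabrb1, with the same listed span as the first (chromosome 5, 71569733 to 72156392) but only 0.746 to 3.22 CPM. Of all genes with a mean of at least 1 CPM, this locus was the most opposed to Gabra2. The 5 libraries highest in the second locus, at 2.64 to 3.22 CPM, were all of the control line and held 87.7 to 193 CPM of Gabra2. The other 15 libraries held 0.746 to 2.08 CPM of the locus and 196 to 286 CPM of Gabra2, so the sets stood apart in the locus and lay side by side in Gabra2. Among those 15 libraries Gabra2 was also lower where the locus was higher, with r = -0.9 and rho = -0.89, given as a description because the locus was found by its likeness. The 5 high libraries were control saline replicates 1 and 3 and control amphetamine replicates 1, 3 and 4, so both treatments are among them. At the first Gabrb1 locus these 5 libraries held 191 to 207 CPM, within the 155 to 223 CPM of the other 15 but above the other 5 control line libraries, which held 155 to 190 CPM.

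**Figure D5:**
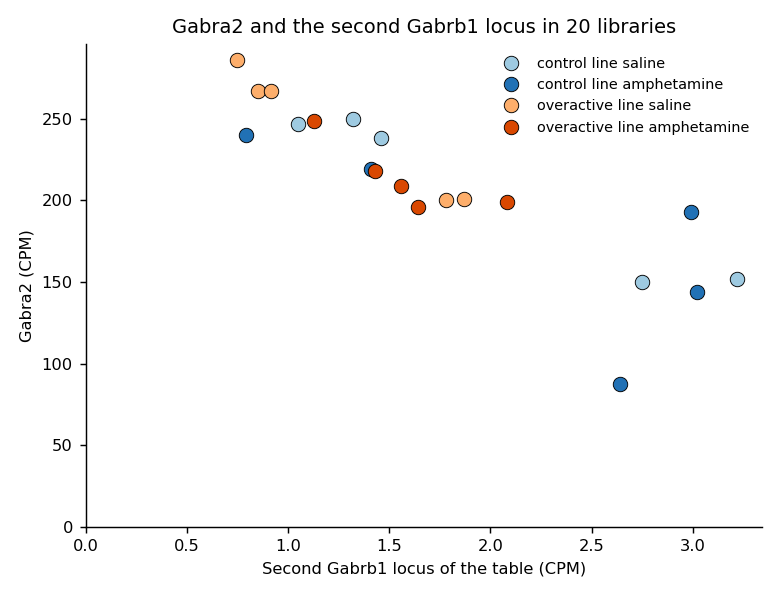
Gabra2 (CPM) against the second locus named Gabrb1 (CPM), 1 point per library, coloured by group. The 5 libraries at 2.64 CPM or more of the second locus are all of the control line and hold 193 CPM of Gabra2 or less; the other 15 hold 196 CPM or more.

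Other genes near Gabra2 also varied with it. Within 10 Mb, 6 of 78 loci (7.69%) had an absolute r of at least 0.7 with Gabra2, against 14 of 13455 (0.104%) on other chromosomes. They were Lias, C330024D21Rik, Atp10d, Fip1l1, Ugdh and the second Gabrb1 locus. The genes most like Gabra2 were Ugdh (0.82), which encodes an enzyme of UDP-glucuronate synthesis, C330024D21Rik (0.77) and Mpzl1 (0.76). Ugdh and C330024D21Rik are among the 6 loci, and Mpzl1 lies on chromosome 1. This search covered tested genes with a single symbol and a mean of at least 1 CPM. For Gabrg1, next to Gabra2, the shares were 11.5% within the window and 7.51% on other chromosomes. For Gabbr1 they were 3.09% and 0.468%, for Gabrd 3.28% and 2.01%, for Gabra4 1.27% and 4.04%, for Gabbr2 0.787% and 3.51%, and for Gabrb1 and Gabra5 no locus in the window reached 0.7. The window and the limit of r were chosen after values were seen, and loci in a window share a stretch of chromosome, so the shares are a description.

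For Gabra4, Gabrb1 and Gabrd the 4 groups overlapped. Gabra4 encodes alpha4, the usual partner of delta outside synapses, at 71569749 to 71658308 on the minus strand of chromosome 5. It held 192 to 234 CPM in control saline libraries (median 215), 223 to 254 in control amphetamine (247), 174 to 259 in overactive saline (209) and 188 to 243 in overactive amphetamine (213). Over both lines amphetamine differed from saline by 0.07 (SE 0.06, edgeR adjusted p = 0.726), and over both treatments the overactive line differed from the control line by -0.11 (SE 0.06, edgeR adjusted p = 0.281). Trpc1 (0.90), Epha4 (0.90) and Gria2 (0.89), an AMPA receptor subunit, were most like it. Gabra4 correlated with the projection neuron score (r = 0.74, rho = 0.69, permutation p = 0.00027 and 0.00112, adjusted 0.00432 and 0.0224 over 80 pairs, r = 0.70 without the 2 farthest libraries). It ran opposite to the astrocyte score (r = -0.75, rho = -0.63, permutation p = 0.00019 and 0.00399, adjusted 0.0038 and 0.0403), though r was -0.54 without the 2 farthest libraries. It also ran opposite to the thalamic score (r = -0.67, rho = -0.65, permutation p = 0.00128 and 0.00228, adjusted 0.0171 and 0.0364). Without the 2 farthest libraries that r was -0.59. For the oligodendrocyte precursor score r was -0.63 (permutation p = 0.00337, adjusted 0.03) and rho -0.56 (permutation p = 0.0113, adjusted 0.0757).

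Gabrb1 encodes beta1 and runs on the plus strand from 71658113 to 72149037, so that its start overlaps that of Gabra4 by 196 bases, of which 46 are exonic in both. The table lists the loci of both genes with 1 shared span. Gabrb1 held 155 to 197 CPM in control saline (median 186), 178 to 207 in control amphetamine (201), 173 to 215 in overactive saline (193) and 180 to 223 in overactive amphetamine libraries (188). The log2 differences were 0.07 for amphetamine over both lines (SE 0.05, edgeR adjusted p = 0.686) and 0.03 for line over both treatments (SE 0.05, edgeR adjusted p = 0.741). Nxph1 (0.83), Wasf3 (0.80) and Ubr1 (0.79) were most like it. The cluster from Gabrg1 to Gabrb1 spans 1.4 Mb, and its genes did not all vary together: Gabra2 and Gabra4 had r = -0.32 (rho = -0.23, permutation p = 0.166 and 0.325, r = 0 without the 2 libraries farthest from the median). Gabra2 and Gabrg1 had r = 0.48 (rho = 0.58), Gabra4 and Gabrg1 -0.55 (rho = -0.51), and Gabra2 and Gabrb1 -0.42 (rho = -0.48). Gabrb1 had r = 0.12 with Gabra4 and 0.11 with Gabrg1. No pair within the cluster had an adjusted p under 0.05 by r or by rho.

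Gabrd, the delta subunit of tonic inhibition, lies on chromosome 4 at 155384980 to 155398112 on the minus strand. It held 61.6 to 89.2 CPM in control saline (median 76.2), 68.5 to 93.7 in control amphetamine (77.1), 55.3 to 84.5 in overactive saline (79.7) and 72.4 to 87.2 in overactive amphetamine libraries (75.6). The overactive saline libraries split into 2 low ones, replicates 1 and 4 at 62.2 and 55.3 CPM, and 3 at 79.7 CPM or more. Replicates 1 and 4 are also among the 4 libraries highest in thalamic markers, and Gabrd ran opposite to the thalamic score (r = -0.66, rho = -0.65, permutation p = 0.0018 and 0.00273, adjusted 0.018 and 0.0364 over 80 pairs, r = -0.63 without the 2 farthest libraries). Gabrd followed the projection neuron score by r (0.60, permutation p = 0.0049, adjusted 0.0392). By rho it missed (0.57, permutation p = 0.01, adjusted 0.0731). The part of these cells in the Gabrd values was not tested. Amphetamine differed from saline by 0.08 over both lines (SE 0.08, edgeR adjusted p = 0.793) and the lines differed by -0.05 over both treatments (SE 0.08, edgeR adjusted p = 0.724). Its neighbour on chromosome 4, Prkcz, a protein kinase C form, was the gene most like it (r = 0.87).

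Among the 28 pairs of members, 3 had a Pearson's r with an adjusted p under 0.05. Gabra4 and Gabbr1 varied together over the 20 libraries (r = 0.77, rho = 0.75, permutation p = 0.0001 and 0.00028, adjusted 0.0028 and 0.00784, r = 0.73 without the 2 farthest libraries and 0.76 on values centred by group). Gabrg1 ran opposite to Gabbr2 (r = -0.66, rho = -0.71, permutation p = 0.00177 and 0.00077, adjusted 0.0248 and 0.0108, r = -0.77 without the 2 farthest). On values centred by group this r was weaker, at -0.48. Gabrg1 also ran opposite to Gabrd (r = -0.60, rho = -0.56, permutation p = 0.00498 and 0.0125, adjusted 0.0465 and 0.0698, r = -0.52 without the 2 farthest and -0.58 on values centred by group). The last pair thus passed by r and missed by rho. Gabbr1 and Gabbr2, the partners in 1 receptor, were not among the 3 pairs.

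The rest of the GABA system was read from 4 lists, each given by its counts beside a median log2 difference of all genes of -0.01 for amphetamine over both lines and 0 for line over both treatments. For amphetamine over both lines no gene of any list passed, where the background is 0%. Of the members themselves 6 were higher and 2 lower (median 0.07). Of 15 genes of receptor anchoring and assembly, 5 were higher and 10 lower (median -0.01). Hap1, which takes part in receptor recycling, was at -0.36 (SE 0.14, edgeR adjusted p = 0.337), and Clptm1, which holds receptors back inside the cell, at 0.06 (SE 0.02, edgeR adjusted p = 0.376). Among 14 GABA-B auxiliary subunits and effectors, 9 were higher and 5 lower (median 0.07), and 5 had an unadjusted p under 0.05. Kcnj3, a channel subunit opened by the receptor, stood 0.43 higher (SE 0.11, edgeR adjusted p = 0.210). Gnb1, a G protein beta subunit, stood 0.11 higher (SE 0.03, edgeR adjusted p = 0.212). Kcnj6, named above as the gene most like Gabbr2, was also 0.43 higher (SE 0.13, edgeR adjusted p = 0.231). With DESeq2, Kcnj3 (adjusted p = 0.0245) and Gnb1 (adjusted p = 0.0365) passed, as did Kcnj3 in edgeR without the 4 libraries with the most thalamic marker RNA (log2 0.61, adjusted p = 0.031). With the cortical score as a covariate the differences were 0.15 for Kcnj3, 0.01 for Kcnj6 and 0.06 for Gnb1 (edgeR adjusted p = 1 for each). Among 11 genes of GABA synthesis, packaging, uptake and breakdown, 1 was higher and 10 lower (median -0.12). Slc32a1, the vesicular GABA transporter, was at -0.12 (SE 0.05, edgeR adjusted p = 0.357) and Gad2, a GABA-making enzyme, at -0.17 (SE 0.08, edgeR adjusted p = 0.452). With the cortical score as a covariate these 2 values turned to 0.01 and 0.07. For these genes, and for Kcnj3, Kcnj6 and Gnb1, the part of cortical cells was not tested. Of 7 chloride transport genes, 5 were higher and 2 lower (median 0.04), with Clcn3, a chloride transporter of endosomes and vesicles, at 0.11 (SE 0.03, edgeR adjusted p = 0.227) and Wnk2, a kinase of the same family as Wnk1, at 0.10 (SE 0.04, edgeR adjusted p = 0.345).

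Between the lines, over both treatments, 6 genes of these lists passed, where 7.02% of all genes did. Of the members, none passed, and 4 were higher in the overactive line and 4 lower (median 0.01). Slc6a11, the GABA transporter of astrocytes, had the largest of the 6 differences: it was at 181 ± 43.0 and 158 ± 24.8 CPM in control saline and amphetamine libraries and 269 ± 89.7 and 236 ± 56.7 CPM in the overactive ones (SD, n = 5), higher by 0.58 on the log2 scale (SE 0.15, edgeR adjusted p = 0.0261). Glul, the glutamine synthetase of astrocytes, was higher by 0.22 (SE 0.05, edgeR adjusted p = 0.0179). Both belong to the list of synthesis, packaging, uptake and breakdown, of which 9 of 11 were higher (median 0.11). Kctd8, an auxiliary subunit of GABA-B receptors, was higher by 0.35 (SE 0.08, edgeR adjusted p = 0.0164), 1 of 14 in its list. Wnk1, a kinase that controls chloride cotransporters, was higher by 0.18 (SE 0.04, edgeR adjusted p = 0.0102), 1 of 7. Plcl1, which binds GABA-A receptors, was higher by 0.25 (SE 0.07, edgeR adjusted p = 0.0413), and Nlgn2, a postsynaptic adhesion protein of inhibitory synapses, was lower by a log2 difference of -0.10 (SE 0.03, edgeR adjusted p = 0.0305), 2 of 15. In 31 alternative fits Wnk1 kept its call in 30, Kctd8 in 29, Glul in 28, Slc6a11 in 26, Nlgn2 in 19 and Plcl1 in 14. Leaving out single libraries took the edgeR adjusted p to at most 0.0764 for Plcl1 and 0.0685 for Nlgn2, and ended the Slc6a11 call without control saline replicate 5, overactive amphetamine replicate 2 or overactive saline replicate 4 (edgeR adjusted p = 0.0502 to 0.0527). Without the 4 libraries with the most thalamic marker RNA only Wnk1 passed, and the Slc6a11 difference was 0.26 (edgeR adjusted p = 0.305). With the cortical score as a covariate none of the 6 passed (edgeR adjusted p = 0.183 to 0.430). Marker lists of several cell types moved with the line as well. Of 10 astrocyte markers tested 8 were higher and 2 lower in the overactive line (median 0.20), 3 and 1 of them past the test. All 11 markers of ependymal cells and choroid plexus, which summed to 44.1 to 975 CPM over libraries, were higher (median 0.75, 2 past the test), as were all 8 of oligodendrocyte precursors (median 0.24, 1 past the test) and 16 of 17 thalamic, septal and hypothalamic markers (median 0.72, none past the test). Of 15 cortical markers 13 were lower (median -0.69, 2 past the test), and of 13 projection neuron markers 12 were lower (median -0.13, none past the test). Of 10 microglia markers 8 were lower (median -0.14, 3 past the test). Higher were 8 of 9 oligodendrocyte markers tested (median 0.19, 1 past the test) and 9 of 12 endothelial and mural markers (median 0.10, 2 past the test). Of 12 interneuron markers 7 were higher and 5 lower (median 0.04, none past the test). The part of these cells in the 6 values was not tested.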

How the data were processed

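The whole striatum of 20 mice was profiled by paired-end RNA sequencing, per the labels, and the authors deposited expected counts per locus, unscaled, in a single table, of which 93.9% were whole within 0.01. The submitters' processing notes name the builds mm10 and GRCm38; the aligner and counter are not given in the sources used here. Loci without a symbol (10576 of 37051, 0.65% of counts) were left out, and expected counts were rounded. The edgeR 4.0.16 model in R 4.3.3 (filterByExpr, TMM, 1 mean per group, quasi-likelihood F test, two-sided) was fitted to all 20 libraries and 17206 genes, and tested on simulated data; over all genes the median SE (log2) was 0.11 for 2 groups compared and 0.08 for pooled comparisons. Log2 CPM used a prior count of 2, and a score is the mean deviation of a marker list's log2 CPM. Correlations used 100000 two-sided permutations.

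The members, the gene lists and the rule for naming genes (all members, then for each list the genes that passed or, where none did in a comparison over both lines or treatments, had the 2 smallest p-values, and the 3 genes most like each member and the most opposed) were chosen with earlier results of these data known. Replicate numbers do not pair the samples (correlations of same-numbered libraries -0.23 to 0.25). Nothing says that mice of a group came from separate litters, and p-values set a difference against the spread between these mice. All mice of a group come from the same line, so they replicate mice and not lines. What selection did cannot be told apart from other differences between these lines. Alternatives were RLE and upper quartile scaling, other filters, DESeq2 1.42.0, limma-voom (limma 3.58.1), only the groups compared, the replicate block, 2 marker scores as covariates, loci of several symbols left out, and each library left out. Leaving out the 4 libraries with the most thalamic marker RNA was chosen after seeing the data. Positions are GENCODE M21 on GRCm38, and upstream sequences are RefSeq's. A few genes, and the list that holds some of them, are not reported here.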

Additional observations from a re-analysis of the deposited data

How the results depend on the processing

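Of 1374 recomputed fold changes of the genes named, 1305 kept their direction and their side of the threshold, 10 passed where they had not, 40 no longer passed and 19 changed sign; the cause was not tested. The number of members past the test stayed at 0 except for amphetamine in the overactive line (1 with DESeq2), amphetamine over both lines (1 with DESeq2, 1 without the 4 libraries highest in thalamic markers, 0 to 1 when single libraries were left out) and line over both treatments (1 with the cortical score as a covariate, 0 to 1 with single libraries left out). Counts of all genes past the test moved more. DESeq2 gave 40 for amphetamine in the overactive line, 181 over both lines, and for line 764 after saline, 322 after amphetamine and 2095 over both treatments. The fit without the 4 libraries gave 31, 80, 95, 17 and 323 in the same order. The cortical covariate left 19 line calls after saline and 181 over both treatments, and the thalamic covariate 45 after amphetamine and 558 over both. Only the groups compared gave 50 after amphetamine. Leaving out single libraries gave 0 to 4 for amphetamine over both lines and, for line, 67 to 240 after saline, 23 to 88 after amphetamine and 770 to 1414 over both treatments.

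The replicate block (a number that does not pair the mice) gave 51 line calls after amphetamine and no member call. Signs turned as follows. With the cortical covariate, amphetamine over both lines was 0.15 for Gabrg1, -0.01 for Gabrd, 0.07 for Gad2 and 0.01 for Slc32a1, the response difference of Gabra5 was -0.07, and the line difference was -0.03 for Gabrg1 after saline, 0.03 for Gabbr2 after amphetamine and 0.02 for Gabrd over both. With the thalamic covariate, the line difference was -0.02 for Gabrg1 after amphetamine and 0.04 for Gabrd and 0.01 for Gabbr1 over both. Without the 4 libraries, amphetamine in the overactive line was 0.01 for Gabbr1, and the line difference was -0.07 for Gabrg1 after amphetamine and -0.02 for Gabrb1, 0.06 for Gabrd and 0.02 for Gabbr1 over both. With single libraries left out, the response difference of Gabra5 ranged from -0.01 to 0.07 and the line difference of Gabbr2 after amphetamine from -0.15 to 0.02. The lowest library of any member held 31.5 CPM.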
